A study of Mus musculus with 2 samples.

Results

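The 5 microRNA loci described here lie in or beside imprinted genes and were measured in the hindbrain of mouse embryos: Mir335 of Mest, Mir298 and Mir296 of the Gnas and Nespas region, Mir483 of Igf2 and Mir675 of H19. They were chosen by name and position and not by their counts, and make up 5 of the 1973 microRNA loci in the count tables, each with a row in both libraries. The tissue was hindbrain of strain B6NCrl at embryonic day 14.5, with no treatment or mutation named in the labels, and RNA under 30 nucleotides was sequenced. The only group has 2 libraries, from collections on 24 July (replicate 1) and 30 July (replicate 2), so collection day and replicate cannot be told apart. The labels call each sample a single hindbrain in one field and a pool of both sexes in another, and give both the same donor entry. A single embryo cannot be collected at the same age on both days, so by the dates the replicates are different material despite the shared donor entry. How many animals each sample holds is open. Every SD measures only the spread between these samples, in which technical and biological parts cannot be told apart. The p-values compare only these 2 libraries, and those of the binomial test used below see counting error only.

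Imprinted genes are transcribed mainly from the allele inherited from 1 parent. Mest, a hydrolase gene of embryonic mesoderm and brain, the growth factor gene Igf2 and the antisense RNA Nespas are transcribed from the paternal allele, and the growth-restraining non-coding RNA H19 from the maternal allele. A microRNA is cut from a hairpin in a longer transcript, and its seed, bases 2 to 8 of the mature strand, pairs with target messenger RNAs. The counts combine both alleles and both arms of a hairpin, so neither the allele of origin nor the ratio of the 5p to the 3p strand was measured.

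The hairpins below show what was counted and how unlike the loci are. They are RefSeq sequences (GRCm38.p6), 5′ to 3′, with the 2 mature strands in capitals.
Mir335: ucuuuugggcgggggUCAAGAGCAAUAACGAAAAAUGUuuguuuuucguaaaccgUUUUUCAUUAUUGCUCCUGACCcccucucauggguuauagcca
Mir298: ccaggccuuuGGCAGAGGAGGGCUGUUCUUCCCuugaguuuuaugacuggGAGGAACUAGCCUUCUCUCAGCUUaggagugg
Mir296: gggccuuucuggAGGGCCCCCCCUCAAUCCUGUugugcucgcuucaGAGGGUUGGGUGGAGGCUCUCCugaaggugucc
Mir483: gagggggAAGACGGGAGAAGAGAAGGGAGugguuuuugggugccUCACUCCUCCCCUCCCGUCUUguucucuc
Mir675: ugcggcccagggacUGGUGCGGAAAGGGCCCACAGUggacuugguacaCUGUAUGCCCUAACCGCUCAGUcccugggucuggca

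The seeds, in capitals in the mature strands below, decide which messages a strand can pair with.
miR-335-5p: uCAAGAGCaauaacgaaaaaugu
miR-335-3p: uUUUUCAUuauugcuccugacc
miR-298-5p: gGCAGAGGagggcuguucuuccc
miR-298-3p: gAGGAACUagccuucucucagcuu
miR-296-5p: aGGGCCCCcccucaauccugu
miR-296-3p: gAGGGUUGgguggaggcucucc
miR-483-5p: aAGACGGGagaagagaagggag
miR-483-3p: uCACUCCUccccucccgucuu
miR-675-5p: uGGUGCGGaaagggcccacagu
miR-675-3p: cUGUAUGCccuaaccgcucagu

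The 10 mature strands had 10 different seeds, and none of those seeds occurred in a mature strand of another locus among the 1738 mature sequences of the RefSeq table. Of the 674 mature strands of detected loci, 61.1% had a seed held by 1 locus. Detected here means at least 10 counts in each library. No member shared a run of 20 bases with another of the 1005 RefSeq hairpins, while 19.7% of the 346 detected loci with a hairpin in that table did. Reads placed at more than 1 position, 33.9% and 34.3% of the reads in replicates 1 and 2, were not assigned to a locus by the authors, which bears on loci with copies. The hairpin of Mir335 was the longest, with 98 bases, and had the lowest share of G and C, 42.9%. Mir296 and Mir675 had 63.3% and 63.1%, and Mir298 and Mir483 lay between with 53.7% and 58.9%. The median over the detected loci was 50.5%. The predicted fold of the Mir675 hairpin was the most stable for its length, with 0.667 kcal/mol released per base, and that of Mir335 the least stable of the 5, with 0.452, against a median of 0.435 over detected loci.

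The members lie in introns, in an exon or outside annotated genes of their own strand (GRCm38). Mir335 lies on chromosome 6 at 30741299 to 30741396, plus strand, 17.8 kb after the annotated start of Mest. It falls in an intron of 7 of the 11 annotated Mest transcripts, an intron of 1316 bases in each, and outside the other 4. Mir298 lies on chromosome 2 at 174267504 to 174267585 and Mir296 at 174267047 to 174267125, both on the minus strand, 378 bases apart. Both lie outside annotated genes of that strand, 13.7 kb and 14.1 kb past the annotated 3′ end of Nespas, which is on the same strand. Mir483 lies on chromosome 7 at 142654924 to 142654996, minus strand, in an intron of 1205 bases of 7 of the 9 Igf2 transcripts and also inside the overlapping gene model Gm49394. Mir675 lies 77.8 kb away at 142577064 to 142577147, minus strand. It overlaps an exon of 3 of the 7 H19 transcripts, which is the 5′ exon in 2 of them, and an intron of 1 other.

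**Figure D1:**
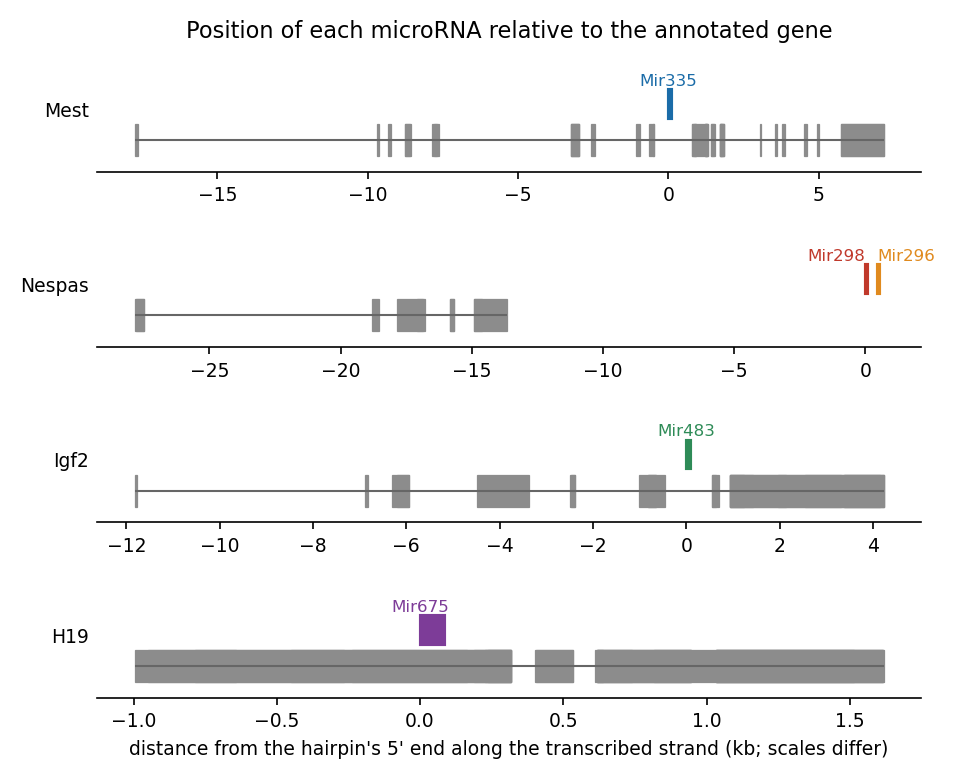
Position of each microRNA (coloured boxes) relative to the annotated exons of all transcripts (grey boxes) of Mest, Nespas, Igf2 and H19; the horizontal axis is the distance in kb from the 5′ end of the hairpin along the transcribed strand, with a separate scale in each row. Mir335 and Mir483 sit between exons, Mir675 sits within exon sequence, and Mir298 and Mir296 lie past the 3′ end of Nespas, 13.7 kb and 14.1 kb away.

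The 5 loci ran from one of the highest levels among reads assigned to a locus down to one with 30 and 33 counts. Reads placed at more than 1 position were not assigned, so levels and ranks leave them out and can be too low for loci with copies. Levels are CPM, gene-strand counts per 1000000 gene-strand counts on microRNA loci, of which replicate 1 had 5826676 and replicate 2 had 6667238. Each read is 1 short molecule, so no division by length was made. Levels of different loci also carry the sequence bias of ligation in small RNA libraries, which was not measured. Without molecular identifiers, the intervals and floors given here describe the error of counting reads and nothing else. In a bulk sample, fewer cells of a type and less RNA per cell cannot be told apart.

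Mir335, the microRNA of the Mest intron, had 163238 counts in replicate 1 and 178959 in replicate 2. That is 28016 CPM (95% exact Poisson interval 27880 to 28152) and 26842 CPM (26717 to 26966), or 27429 ± 830.2 CPM (SD, n = 2). It ranked 9 of 1973 loci in both libraries. Among the 191 detected loci in introns of a gene on the same strand it ranked 5, and on chromosome 6 it held 85.4% and 84.5% of all counts over 80 loci. Most reads assigned to microRNAs of that chromosome thus came from 1 imprinted intron.

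Mir298 and Mir296, the neighbours past Nespas, came next. Mir298 had 29984 and 31637 counts, which gave 5146 CPM (5088 to 5205) and then 4745 CPM (4693 to 4798), with a mean of 4946 ± 283 CPM (SD, n = 2). Mir296 had 19224 and 20566 counts, which gave 3299 CPM (3253 to 3346) and 3085 CPM (3043 to 3127), with a mean of 3192 ± 152 CPM (SD, n = 2). The libraries of Mir298 lay above those of Mir296 with no overlap. By mean level they ranked 42 and 56 of all loci, and 11 and 13 among the 110 detected loci outside annotated genes of their own strand.

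Mir483, in the intron of the growth factor gene Igf2, was 15.7-fold below Mir296 in mean CPM. It had 1295 and 1232 counts, or 222 CPM (210.3 to 235) and 185 CPM (175 to 195), with a mean of 204 ± 26.5 CPM (SD, n = 2). It ranked 173 by mean level, which was above the median of 130 CPM over the 401 detected loci. Mir675, cut from H19, was at the other end of the range. It had 30 counts in replicate 1 and 33 in replicate 2, or 5.15 CPM (3.47 to 7.35) and 4.95 CPM (3.41 to 6.95), with a mean of 5.05 ± 0.141 CPM (SD, n = 2). By mean level it ranked 335, and 16.5% of detected loci had a lower mean level. The floor, the level that a count of 0 still allows (3 counts), was 0.515 CPM for replicate 1 and 0.450 CPM for replicate 2, and Mir675 lay above it in both.

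The order Mir335, Mir298, Mir296, Mir483, Mir675 was the same in both libraries, and no 2 members overlapped. From the highest to the lowest the reads differed 5441-fold in replicate 1 and 5423-fold in replicate 2. Together the members held 3.67% of the microRNA counts of replicate 1, with a 95% Clopper-Pearson interval from 3.65 to 3.68, and 3.49% of those of replicate 2, with an interval from 3.47 to 3.50. This gave a mean of 3.58% ± 0.129 (SD, n = 2). Mir335 supplied 76.7% ± 0.449 of that sum (SD, n = 2). For all 5 loci nearly every read lay on the gene strand. Mir335 had 6 opposite-strand counts in replicate 1 and 2 in replicate 2, and the other members had 0 in both.

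**Figure D2:**
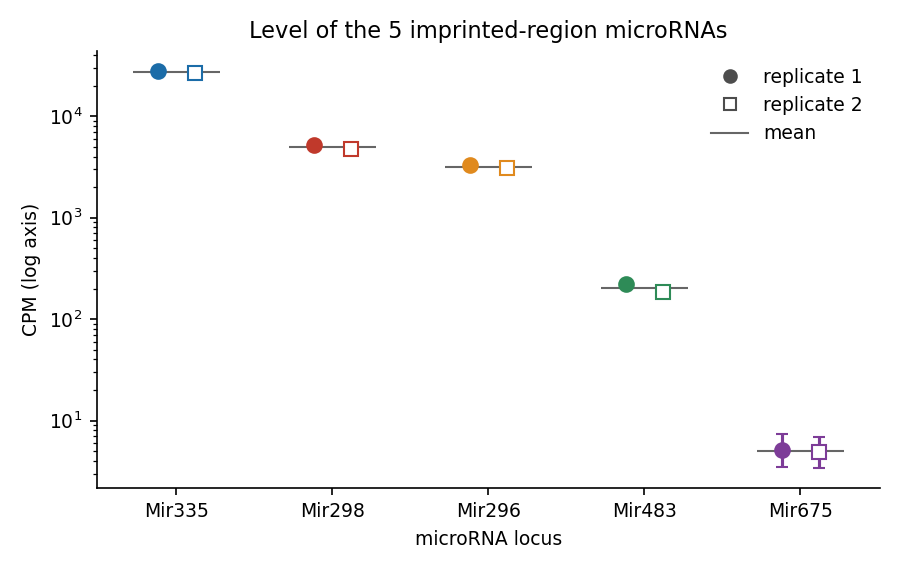
Level of each microRNA locus in CPM (log axis) in replicate 1 (filled circles) and replicate 2 (open squares); bars are 95% exact Poisson intervals, which are smaller than the symbols except for Mir675, and horizontal lines are means of 2 libraries. The means run from 27429 CPM for Mir335 to 5.05 CPM for Mir675, and no 2 loci overlap.

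The loci nearest to each member in mean CPM over the 2 libraries show how finely the order can be read. Mir335 stood apart from both neighbours. Mir487b of the imprinted Dlk1-Dio3 region, just above it, had 28696 and 32627 CPM, and Mir130a, just below it, had 24689 and 25554 CPM. Mir298 overlapped Mir20a of the miR-17 cluster, just above it with 5565 and 4636 CPM, and lay above Mir140 of cartilage with 4126 and 4535 CPM. Mir296 overlapped both of its neighbours, Mir431, also of Dlk1-Dio3, with 3293 and 3377 CPM, and Mir1983 with 2984 and 3277 CPM. Mir483 overlapped Mir181a-2, with 199 and 223 CPM, and the myeloid Mir223, with 194 and 208 CPM. Mir675 overlapped Mir669h in an intron of the imprinted gene Sfmbt2, with 6.18 and 4.05 CPM, and Mir3075, with 3.78 and 6.30 CPM. The ranks in replicates 1 and 2 were 40 and 40 for Mir298, 54 and 61 for Mir296, 168 and 180 for Mir483, and 334 and 335 for Mir675.

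**Figure D3:**
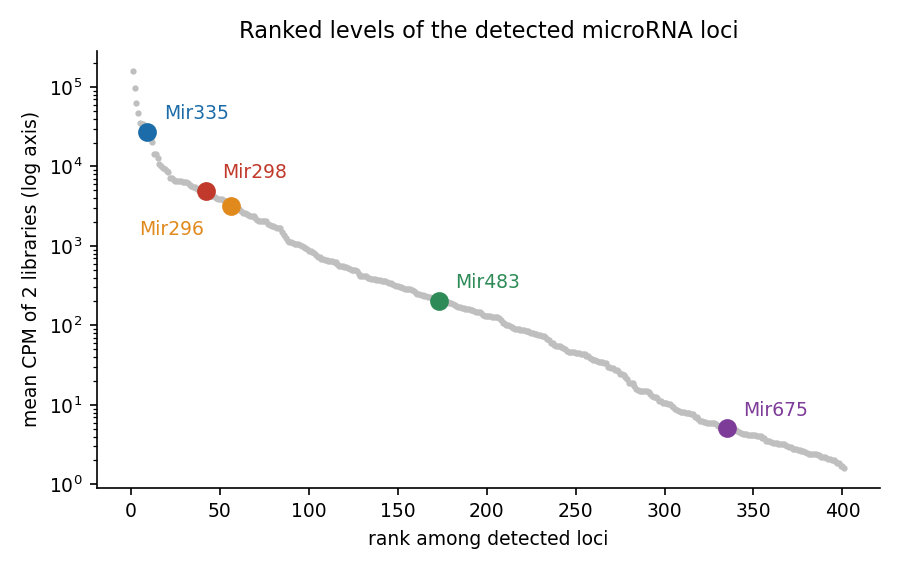
Mean CPM of 2 libraries (log axis) against rank for the 401 detected microRNA loci (grey points), with the 5 members as coloured points. Mir335 stands at rank 9, Mir298 and Mir296 at 42 and 56, Mir483 at 173 and Mir675 at 335.

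The members of a neighbouring pair can be compared inside each library, with no scaling. Mir298 had 1.56 reads for each read of Mir296 in replicate 1 (95% exact interval 1.53 to 1.59) and 1.54 in replicate 2 (1.51 to 1.57), a mean of 1.55 ± 0.0151 (SD, n = 2). The intervals overlap, and the ratio changed by 0.02 on the log2 scale. Among 92 neighbouring same-strand pairs at most 10000 bases apart, with at least 100 counts for each locus in each library, the change had a median of 0.12 and ran from 0.0045 to 0.71. The pair of Mir296 and Mir298 had the 13th smallest change. The minimum admits loci with far fewer counts than these 2, where counting error alone makes larger changes. The order was not adjusted for depth. Mir483 had 43.2 reads for each read of Mir675 in replicate 1 (30.1 to 64.2) and 37.3 in replicate 2 (26.4 to 54.5), a mean of 40.3 ± 4.12 (SD, n = 2). Those intervals also overlap, and their width comes from the 30 and 33 counts of Mir675. The 2 loci of the Igf2 and H19 region thus lay much further apart in reads than the 2 loci past Nespas. Both pairs share a strand and an imprinted region, but they are unlike in other ways. Mir298 and Mir296 lie 378 bases apart. Mir483 and Mir675 lie 77.8 kb apart, too far for the pairs counted above, in genes transcribed from opposite parental alleles.

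Each member had a lower scaled level in replicate 2, by small amounts. The log2 ratio of replicate 2 over replicate 1, after TMM scaling and with 0.5 added to each count, was -0.10 for Mir335 (95% exact interval -0.11 to -0.09). It was -0.16 for Mir298 (-0.18 to -0.14) and -0.14 for Mir296 (-0.17 to -0.11). The ratio was largest in size for Mir483, -0.31 (-0.42 to -0.20), which is 1.24-fold lower in replicate 2. For Mir675 it was -0.10 (-0.86 to 0.66), an interval that holds changes in both directions.

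A binomial test of each locus (exact, two-sided, Benjamini-Hochberg over the 498 loci whose counts summed to 10 or more) called 4 of the 5 members lower in replicate 2, against 15.1% of all loci tested called lower and 32.5% called in either direction. The adjusted p was 1.21e-97 for Mir335, 1.19e-41 for Mir298, 5.32e-21 for Mir296, 4.63e-07 for Mir483 and 0.941 for Mir675. That test sees counting error only, so with counts this deep it calls differences of a few percent. It compares these 2 libraries and not conditions. The shares over all loci take in many with few counts, where calls are rarer. Among the 311 loci whose counts summed to 100 or more, a set without Mir675, it called 164, and 79 of these were lower. The 4 called members are thus less unusual for their depth than the shares over all loci make them look. edgeR's exact test with a common dispersion, a coefficient of variation of 10.8%, called 0 of the 5 members (0 at an unadjusted p under 0.05), against 1.41% of all loci. The 2 libraries compared are also the source of that dispersion, so the differences tested enter the spread, and the lack of calls says nothing about whether the members differed. The split of binomial calls over all loci, 87 higher and 75 lower, was 114 and 59 with library totals in place of TMM.

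Between the libraries the coefficient of variation of CPM was 3.03% for Mir335, 5.73% for Mir298, 4.76% for Mir296, 13.0% for Mir483 and 2.79% for Mir675. The median over the 282 loci that had 100 counts or more in both libraries was 6.21%. Among the members with that many counts, Mir483 thus differed most between the samples. The small value of Mir675 rests on 30 and 33 counts, and the interval of its log2 ratio, -0.86 to 0.66, leaves room for a larger difference.

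**Figure D4:**
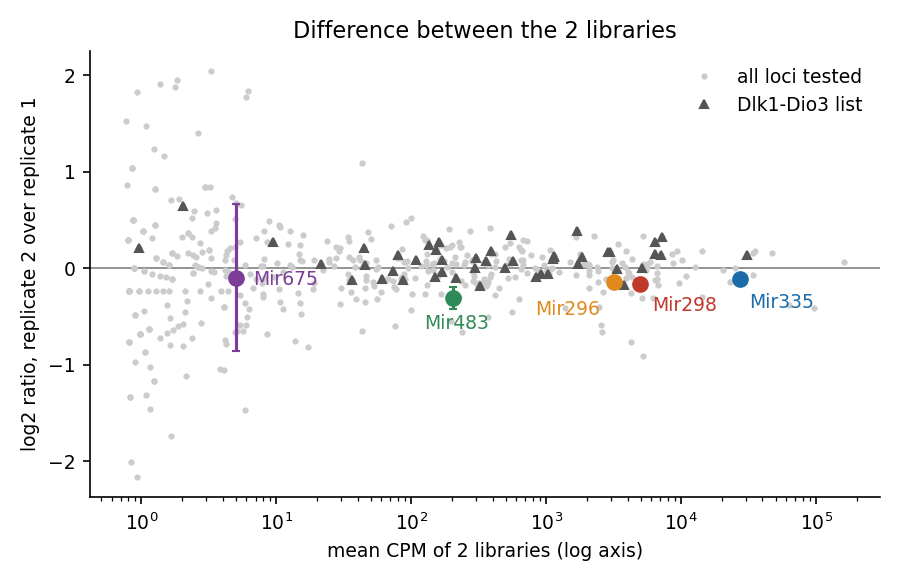
Log2 ratio of replicate 2 over replicate 1 after TMM scaling against mean CPM (log axis) for the 498 loci tested (grey points), listed Dlk1-Dio3 loci (triangles) and the 5 members (coloured points with 95% exact intervals). All 5 members lie below 0, from -0.10 for Mir335 and Mir675 to -0.31 for Mir483, and the interval of Mir675 crosses 0.

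Other imprinted microRNAs, from the maternal RNA of the Dlk1-Dio3 region, were read beside the members. Of 59 listed loci 51 had a row, 46 were tested, and 17 were called higher and 3 lower in replicate 2 by the binomial test, while 26 did not pass. Over all loci tested, 17.5% were called higher and 15.1% lower, shares that take in many loci with few counts. Where counts summed to 100 or more, 85 of 311 loci were called higher and 79 lower. Of the listed loci in that set, 19 of 44 were higher and 3 lower. edgeR's test with the common dispersion, limited as above, called 0 of the listed loci. Their median log2 ratio was 0.09, beside 0.01 over all 498 loci and -0.14 over the 5 members. Mir487b had 0.14, Mir411 0.33 and Mir127 0.13, all called higher by the binomial test. The difference between the sets was not tested. The listed Dlk1-Dio3 loci summed to 8.66% of counts in replicate 1 and 9.78% in replicate 2. Mir335 alone, with 2.80% and 2.68%, came close to their leading member Mir487b, with 30661 ± 2779 CPM (SD, n = 2).

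Markers of the tissue and of other cell types were read beside the members. Mir10a and Mir10b, encoded in the Hox clusters that pattern the hindbrain, had 96400 ± 17074 and 63192 ± 10423 CPM, and the neuronal Mir137 had 10171 ± 671 CPM (SD, n = 2). Mir10a and Mir10b were lower in replicate 2, with log2 ratios of -0.41 and -0.38, further below 0 than any member, while Mir137 had 0.09. The 11 hindbrain and neural loci with a row summed to 19.4% of counts in replicate 1 and 15.7% in replicate 2 with none at 0. The binomial test called 4 higher and 3 lower. Over all loci, many of them with few counts, it called 32.5% in either direction. The calls given for the lists below are of the same test, and edgeR's test with the common dispersion, limited as above, called 1 blood locus and 0 in the other lists of markers. Mir122, the defining microRNA of hepatocytes, had 14.7 ± 1.43 CPM, and Mir206 of skeletal muscle had 15.6 ± 0.896 CPM (SD, n = 2). Embryonic liver and muscle are tissues with strong transcription of Igf2 and H19. The 8 liver and endocrine loci summed to 1405 and 1281 CPM with none at 0, and 0 were called higher and 2 lower in replicate 2. Those 2 were Mir375 of endocrine cells, with a log2 ratio of -0.32, and Mir217 of the pancreas with -0.11, while Mir122 had 0.15 and did not pass. The median log2 ratio of these 8 loci was -0.04. The 8 muscle loci with a row summed to 22.7 and 24.9 CPM with 2 at 0 and a median level of 0.402 CPM, below the floor of either library, and 0 of the 3 tested were called. The 8 vascular and mesenchymal loci, led by the endothelial Mir126a with 34235 ± 3467 CPM, summed to 42867 and 48457 CPM with none at 0, and 3 were higher and 2 lower. The 6 blood loci with a row summed to 700 and 826 CPM with none at 0, and 3 were higher and 1 lower. The neural and muscle lists name several copies each of Mir9, Mir124a, Mir1a and Mir133a. Reads placed at more than 1 position were not assigned to a locus, so the sums and medians of these lists can be too low. The part of these cell types in the levels of the members was not tested.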

How the data were processed

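The members and lists were chosen with earlier results of these data known. The authors deposited 1 table a library of raw, unscaled counts for each locus, in columns for both strands, the gene strand and the opposite strand. Per the file lists deposited with them, the build was mm10 and the annotation M4. Which aligner and counter they used is not given in the sources used here. The 4 rows for unassigned reads were dropped. In replicates 1 and 2, 13.8% and 15.9% of reads were unmapped, 33.9% and 34.3% mapped to several positions and 2.99% and 3.31% lay outside loci on the gene strand.

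Symbols and coordinates came from GENCODE M21 (GRCm38, the same build), matched for 1894 of 1973 loci, and sequences from RefSeq, matched for all 5 members. Hairpins were folded with RNAfold (ViennaRNA 2.7.2). With 1 group of 2 libraries no residual degrees of freedom remain for edgeR's quasi-likelihood test, so an exact binomial test against the share set by TMM effective library sizes (factors 0.985 and 1.01) was used, with Benjamini-Hochberg adjustment at 0.05. It was run on simulated libraries drawn with counting error only, which cannot show how it behaves where libraries differ by more than that. The text names the members, the nearest loci in level, list leaders and, chosen after their values were seen, Mir122 and the loci of the closing paragraph. Alternatives were other scalings (DESeq2 size factors, library totals, upper quartile), other count minimums, both strands, the pseudocount, the denominator, edgeR's exact test with the common dispersion, and each library alone. Software was Python 3.11.15, scipy 1.17.1, R 4.3.3, edgeR 4.0.16 and DESeq2 1.42.0.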

Additional observations from a re-analysis of the deposited data

How the results depend on the processing

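All 5 log2 ratios stayed below 0 in the 39 recomputed values (7 or 8 alternatives a locus). They ran from -0.12 to -0.06 for Mir335, -0.18 to -0.12 for Mir298, -0.16 to -0.10 for Mir296, -0.33 to -0.27 for Mir483 and -0.12 to -0.06 for Mir675. The count minimums leave a ratio unchanged, and the pseudocount and the common dispersion barely move it. Only the scalings and the counts of both strands could have changed its sign, so the 39 values are not separate checks. Of the 39 values, 35 kept their side of the threshold. The other 4, from edgeR's exact test with the common dispersion, no longer passed it: Mir335 (-0.10), Mir298 (-0.16), Mir296 (-0.14) and Mir483 (-0.31), each at an adjusted p of 1. Its spread was estimated from the same 2 libraries, so the lost calls say nothing about stability. It called 7 of 498 loci in place of 162 (27 at an unadjusted p under 0.05) and 0 of the Dlk1-Dio3 loci in place of 20. With all reads as the denominator the levels were 13150 CPM for Mir335, 2372 for Mir298, 1531 for Mir296, 97.8 for Mir483 and 2.42 for Mir675, and the summed share was 1.72%, because that denominator adds unassigned reads. Levels and ratios with both strands moved by less than 1 SD. With 2 libraries, either one alone always lies within 1 SD of their mean, so that alternative tests nothing. Mir675, with 63 summed counts, has no value under a summed count of at least 100. Its depth limits what can be said of it: the interval of its log2 ratio runs from -0.86 to 0.66. No paired analysis was possible because there is 1 group, whose 2 libraries are the replicates themselves.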

Other observations

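Other microRNA loci lie within 1000000 bases of the members. The sensory cluster of Mir182, Mir96 and Mir183 lies 572 to 575 kb from Mir335, on the opposite strand, with 2071 ± 160, 536 ± 80.7 and 1491 ± 79.4 CPM (SD, n = 2) and log2 ratios of replicate 2 over replicate 1 of -0.20, 0.27 and 0.07. Mir29a, 321 kb from Mir335 on the other side, had 157 ± 22.2 CPM (SD, n = 2) and a log2 ratio of 0.25, and Mir29b-1 beside it had 14 and 13 counts and -0.34, which did not pass the binomial test, while Gm23049 had 0 counts. Around Mir298 and Mir296, the other 2 loci in that window, Mir6340 and Gm27591, had 0 counts in both libraries. Around Mir483 and Mir675, Mir3104, Mir7063 and Mir7064 had at most 12 counts in a library, with log2 ratios of -0.24, 0.16 and -0.72, none of which passed.

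Bases 2 to 7 of 4 of the 10 mature strands, 1 base fewer than the seed, occur in 1 other mature strand each. Of those, 3 belong to loci with a row: Mir6986 shares them with miR-335-3p, Mir5621 with miR-296-5p and Mir3110 with miR-483-3p. These had 0.407 ± 0.152, 0.418 ± 0.379 and 0.397 ± 0.0755 CPM (SD, n = 2), each from at most 4 counts in a library. The fourth, miR-7646-5p, shares them with miR-335-5p and its locus was not analysed here.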
